A study of Mus musculus with 2 samples.

Results

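The genes that make smooth muscle contract were followed in single cells of the cardiac neural crest region of E9.5 mouse embryos. The set held 9 genes, chosen by name (Acta2, Tagln, Actg2, Myh11, Cnn1, Cald1, Myl9, Tpm2 and Mylk), out of 18131 genes with a value, and all 9 were present in both libraries. Embryos of the genotype Prdm6+/+; Wnt1-Cre2; ZsGreen1 gave the WT library. For the KO library, embryos were Prdm6f/f; Wnt1-Cre2; ZsGreen1, and both groups were on a C57BL/6 background. Both genotypes therefore carried the Wnt1-Cre2 transgene, which makes Cre recombinase in the Wnt1 lineage that gives rise to the neural crest, and the ZsGreen1 reporter that Cre turns on. Only the KO embryos carried floxed Prdm6, so that Prdm6 was lost in the Wnt1 lineage alone. No sorting of green cells is described. By the design of the cross, cells outside the Wnt1 lineage, blood included, keep Prdm6 in both genotypes, which was not tested here. Mid otic placode was the front limit of the tissue taken and somite 4 was included at the rear, and cells were not traced back to single embryos here.

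Smooth muscle cells shorten when myosin II pulls on actin filaments. Calcium-bound calmodulin activates myosin light chain kinase, which phosphorylates the regulatory light chain of myosin and starts the cycle, while calponin and caldesmon restrain it. Many of the genes of this apparatus are switched on by serum response factor and its partner myocardin, which bind an element called the CArG box. Embryonic heart muscle uses part of the same set before its own actin and myosin genes take over, and neural crest cells that settle around the arch arteries switch it on as they become smooth muscle.

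The WT library held 11958 cells and 20781384 unique molecular identifiers (UMIs), with a median of 1597 UMIs per cell. The KO library held 9765 cells and 18936857 UMIs, with a median of 1703 UMIs per cell. With a single library of each genotype, differences have no replicate check and no p-value is given. Levels are UMIs per 1000000 UMIs (CPM), in brackets with an exact Poisson interval of 95%, and ratios are log2 of KO over WT with an exact conditional interval of 95%. These intervals cover counting error only. A UMI stands for 1 captured 3′ end whatever the length of the transcript, so levels of different genes were set side by side without a length correction. The libraries shared 26 cell barcodes. Prdm6, the targeted gene, encodes a histone methyltransferase and had 104 UMIs in WT and 59 in KO over all cells (ratio −0.68, −1.17 to −0.21). In the classes defined below it had 19 and 18 UMIs in cardiac muscle-like cells (0.36, −0.65 to 1.37) and 4 and 0 in erythroid-like cells. In cells with 5 or fewer cardiac markers it had 79 and 37 UMIs (−0.98, −1.58 to −0.40). A 3′ read, though, looks the same from a floxed allele before and after deletion unless the deleted part holds the 3′ end.

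Cell classes were assigned from fixed marker lists that hold none of the 9 genes, and 9 classes had at least 50 cells in each library. A cell joined a class when it had a UMI of at least 3 of its markers and of more markers than of any other class. For heart muscle this rule took in 2984 WT and 3070 KO cells, whose summed level of the 14 cardiac markers was 11199 CPM in WT and 8027 CPM in KO. In cells with at least 8 of the markers that sum was 31880 CPM in WT and 32338 CPM in KO, whereas cells with 3 markers had 2082 CPM in WT and 1869 CPM in KO. Erythroid-like cells, which do not make heart muscle proteins, had 869 CPM in WT and 815 CPM in KO. After the data were seen, cardiac muscle-like cells were defined by at least 8 markers, which left 560 WT cells (4.68%) and 341 KO cells (3.49%), with medians of 2429.5 and 3152 UMIs. Just below this number, 95 WT and 60 KO cells had 7 markers. The leading genes of the class included Ankrd1, Smpx, Ttn and Myl4 in both libraries, all of them markers on its list. Ratios of KO over WT by the wider rule of 3 markers are given further on.

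The CArG boxes of Myl9 and Acta2, the members with most UMIs in cardiac muscle-like cells, are shown to give the sequence context of this regulation. RefSeq windows of GRCm38.p6 were found for 6 of the 9 genes (Acta2, Cnn1, Cald1, Myl9, Tpm2 and Mylk) and none was used for Tagln, Actg2 and Myh11. A CArG box was searched for in the 250 bases before the RefSeq gene start, a sequence that reads as the same motif on both strands. The exact element was present in 1.47% of all 32851 such windows, and the exact element or one with a single G or C in its core in 8.59%. Myl9 held both forms and Acta2 held 2 of the second form, while the windows of Cnn1, Cald1 (2 windows), Tpm2 and Mylk held neither, which says only that these letters are not in these windows. Boxes are in capitals, and the stretch of Myl9 runs up to the annotated gene (chr2:156775214-156775419, plus strand), with the exact box at −161 to −152 and the other at −99 to −90 from the RefSeq start. The stretches of Acta2 are chr19:34255439-34255466 and chr19:34255389-34255416 on the minus strand, with boxes that begin at −84 and −34 from the RefSeq start and lie inside the GENCODE gene.
Myl9: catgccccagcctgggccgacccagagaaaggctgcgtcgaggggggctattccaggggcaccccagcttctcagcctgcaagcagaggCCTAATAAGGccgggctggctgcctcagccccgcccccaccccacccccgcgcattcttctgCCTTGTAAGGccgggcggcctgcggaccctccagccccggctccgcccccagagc
Acta2, distal box: tgctgaggtCCCTATATGGttgtgttag
Acta2, proximal box: gtctttgctCCTTGTTTGGgaagcgagt

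Among the 9 classes with at least 50 cells in each library, 7 of the 9 genes had their highest level in cardiac muscle-like cells in both libraries. For Acta2, Tagln, Myl9, Tpm2 and Cnn1 the interval there lay above that of the next class, for Actg2 and Myh11 it did not, and Cald1 and Mylk had their highest level elsewhere. Summed over the 9 genes, the level in cardiac muscle-like cells was 6385 CPM (6253 to 6519) in WT and 5667 CPM (5522 to 5814) in KO. Of the 9 named classes, splanchnic mesoderm-like cells came next, with 1001 CPM (942 to 1062) in WT and 1066 CPM (996 to 1141) in KO, and erythroid-like cells were lowest, with 289 CPM (258 to 323) and 243 CPM (202 to 290). The cardiac marker sum of splanchnic mesoderm-like cells was also above that of most other classes, at 2633 CPM in WT and 2652 CPM in KO, and its part in their level was not tested. The classes in between, from 483 to 699 CPM in WT and from 489 to 714 CPM in KO, could not be put in a firm order, since the intervals of neighbours overlapped. Myogenic-like cells, 26 in WT and 13 in KO, were too few to enter this order. In 60022 and 32189 UMIs they held 39 and 21 of Acta2, 44 and 17 of Tagln, 39 and 14 of Myl9 and 33 and 26 of Tpm2. Per UMI each of these was above splanchnic mesoderm-like cells in both libraries, and Tpm2 was also above cardiac muscle-like cells.

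**Figure D1:**
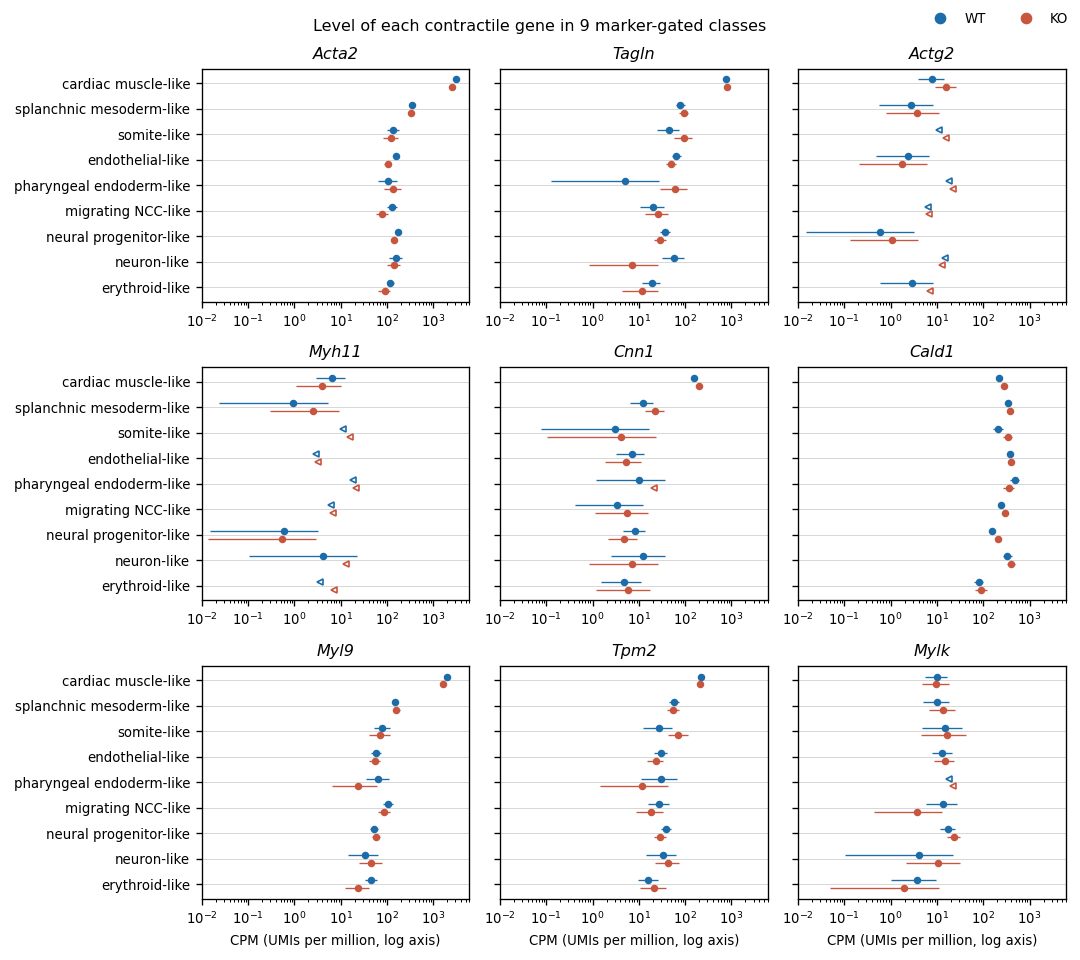
Level of each of the 9 genes (CPM, log axis) in the 9 named classes, 1 panel per gene, with WT in blue and KO in red. Points are levels with exact Poisson intervals of 95%, and open triangles mark the upper bound where no UMI was found. Of these 9 classes, Acta2, Tagln, Cnn1, Myl9 and Tpm2 stand highest in cardiac muscle-like cells, whereas Cald1 and Mylk do not.

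Among the actins of the set, Acta2 (chromosome 19, 34241090 to 34255590, minus strand, GENCODE vM21 on GRCm38) encodes smooth muscle alpha-actin, the main thin filament actin of vascular smooth muscle. With 8731 UMIs over all WT cells and 5926 over all KO cells (420 and 313 CPM), it had more UMIs than any other member. In cardiac muscle-like cells it stood at 3061 CPM (2970 to 3155) in WT and 2519 CPM (2423 to 2618) in KO, which was 8.82-fold and 7.54-fold the level of splanchnic mesoderm-like cells. After each cell had been thinned to 1000 UMIs, 88.7% of WT and 88.2% of KO cardiac muscle-like cells had a UMI of Acta2, with a median of 3 and 2 UMIs per cell and a range of 0 to 13 and 0 to 12. The same share was 11.1% in WT and 9.55% in KO erythroid-like cells, which serves as the background (unthinned shares were 97.3% and 97.1% in cardiac muscle-like cells and 21.7% and 20.4% in erythroid-like cells, at median depths of 2055.5 and 2469 UMIs in the latter). Migrating NCC-like cells, led by Sox10 and Foxd3, had 129 CPM (102 to 162) of Acta2 in WT and 77.9 CPM (56.4 to 105) in KO, and in both libraries these intervals overlapped those of erythroid-like cells, at 118 CPM (98.3 to 141) and 88.2 CPM (64.3 to 118). Acta2 was therefore not detectable above the background in crest cells at this depth. Splanchnic mesoderm-like cells, at 347 CPM and 334 CPM, and neural progenitor-like cells, at 172 CPM and 138 CPM, had intervals above the erythroid-like ones in both libraries. The cardiac marker sum of neural progenitor-like cells, 1103 CPM in WT and 1151 CPM in KO, was also above the erythroid-like 869 and 815 CPM. Its part in their Acta2 level was not tested.

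Actg2 (chromosome 6, 83512905 to 83536265, minus strand) encodes smooth muscle gamma-actin, typical of visceral smooth muscle. It was rarely found, with 37 UMIs in WT and 39 in KO over all cells. Of these, 11 in WT and 16 in KO came from cardiac muscle-like cells (7.88 and 15.5 CPM), a difference within the counting error (ratio 0.98, −0.22 to 2.23). No UMI was found in somite-like, migrating NCC-like, neuron-like or pharyngeal endoderm-like cells of either library. In the 238 WT and 186 KO migrating NCC-like cells a count of 0 allows a share of cells with a UMI of up to 1.26% and 1.61%, taken as 3 cells of the total rather than as an exact binomial bound.

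Myh11 (chromosome 16, 14194535 to 14291372, minus strand) encodes the myosin heavy chain of smooth muscle, the most specific marker of mature smooth muscle cells. It had 14 UMIs in the whole WT library and 12 in the KO library, each in a different cell. In cardiac muscle-like cells 9 of these were found in WT and 4 in KO, and migrating NCC-like, somite-like, endothelial-like, erythroid-like and pharyngeal endoderm-like cells held none. Cells past the gate of mural cells, the class that would hold early vascular smooth muscle and pericytes, numbered 11 in WT and 16 in KO, too few for a level, and they had 0 UMIs of Myh11, Actg2 or Cnn1. In those cells Tagln had 4 and 18 UMIs, Acta2 5 and 5, Myl9 3 and 19, and Cald1 10 and 18.

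Myl9 (chromosome 2, 156775420 to 156781658, plus strand) encodes the regulatory light chain of smooth muscle and nonmuscle myosin, the substrate of myosin light chain kinase. Its level in cardiac muscle-like cells was 1921 CPM (1849 to 1995) in WT and 1629 CPM (1552 to 1709) in KO. This was 12.8-fold and 10.25-fold that of splanchnic mesoderm-like cells (150 and 159 CPM). These came next among the classes with at least 50 cells in each library. Smaller classes were not ranked. Of these, myogenic-like cells held 39 Myl9 UMIs of 60022 in WT and 14 of 32189 in KO, per UMI above splanchnic mesoderm-like cells. Mural cells held 3 of 26195 in WT and 19 of 39253 in KO. It was found in 78.2% of WT and 72.1% of KO cardiac muscle-like cells at 1000 UMIs and in 3.71% and 3.02% of erythroid-like cells. Unlike Acta2, it lay above the background in crest cells: migrating NCC-like cells had 107 CPM (82.3 to 137) in WT and 85.1 CPM (62.6 to 113) in KO, against 45.3 CPM (33.4 to 60.1) and 23.5 CPM (12.2 to 41.1) in erythroid-like cells.

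Mylk (chromosome 16, 34745210 to 35002420, plus strand) encodes the kinase itself and overlaps genes on the opposite strand, of which 1 also had a column. Its 260 WT and 259 KO UMIs came mainly from outside the heart: cardiac muscle-like cells held 5.38% of them in WT and 3.86% in KO, at 10.0 and 9.71 CPM. Of the 9 named classes, neural progenitor-like cells, led by Sox1 and Olig3, ranked first, with 17.4 CPM (11.7 to 24.8) in WT and 23.0 CPM (16.7 to 31.0) in KO. These intervals overlapped those of somite-like cells, the next class, at 15.0 CPM (4.87 to 35.0) and 16.8 CPM (4.57 to 43.0). Neural progenitor-like cells were the only class with an interval above that of erythroid-like cells, at 3.78 CPM (1.03 to 9.67) and 1.96 CPM (0.0496 to 10.9), in both libraries.

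The thin filament proteins differed from each other. Tagln (chromosome 9, 45929619 to 45936058, minus strand) encodes transgelin or SM22-alpha, an early marker of the smooth muscle lineage, and overlaps Pcsk7 and Gm48529 on the opposite strand. It stood at 778 CPM (732 to 825) in WT and 795 CPM (741 to 851) in KO cardiac muscle-like cells, where 48.8% and 49.1% of thinned cells had a UMI against 1.86% and 1.51% of erythroid-like cells. Endothelial-like cells had 64.2 and 49.9 CPM and splanchnic mesoderm-like cells 78.8 and 92.6 CPM, in each case with intervals above the erythroid-like levels of 18.9 CPM (11.5 to 29.2) and 11.8 CPM (4.32 to 25.6). Migrating NCC-like cells had 20.4 CPM (10.5 to 35.6) and 25.4 CPM (13.9 to 42.5), which overlapped the background.

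Cnn1 (chromosome 9, 22099216 to 22109630, plus strand) encodes calponin, an inhibitor of the myosin ATPase. Cardiac muscle-like cells held 56.7% of its UMIs in WT and 62.1% in KO, and were its only class with an interval above that of erythroid-like cells. Its level there was 155 CPM (135 to 178) in WT and 202 CPM (175 to 231) in KO. At 1000 UMIs it was found in 12.5% (9.89 to 15.6) of WT and 21.2% (17.0 to 25.9) of KO cells of the class, and in 2 WT cells and 1 KO cell of the erythroid-like class. These exact binomial intervals take the cells of 1 library as units, so they give no replicate check. How many of all genes differed as much in this share was not counted.

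Tpm2 (chromosome 4, 43514711 to 43523765, minus strand) encodes beta-tropomyosin, which lies along the actin filament. Its level in cardiac muscle-like cells was 225 CPM (201 to 251) in WT and 207 CPM (180 to 236) in KO. Among classes with at least 50 cells in each library, the step to the next class was smaller than for Acta2 or Myl9. It was 3.85-fold over splanchnic mesoderm-like cells in WT and 2.90-fold over somite-like cells in KO. The few myogenic-like cells were above cardiac muscle-like cells per UMI, with 33 of 60022 UMIs in WT and 26 of 32189 in KO.

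Cald1 (chromosome 6, 34598500 to 34775473, plus strand) encodes caldesmon, which has a smooth muscle and a widely used nonmuscle isoform that 3′ counts of a gene do not tell apart. It was expressed throughout the tissue. Every one of the other 8 classes exceeded erythroid-like cells in both libraries, where it had 79.3 CPM (63.3 to 98.2) in WT and 90.2 CPM (66.0 to 120) in KO. Pharyngeal endoderm-like cells ranked first in WT, at 474 CPM (383 to 579), and endothelial-like cells in KO, at 405 CPM (370 to 444), but neither differed from the class below it beyond counting error. The pharyngeal endoderm-like class of WT was led by Ttr and also by Rbp4 and Afp, genes of liver and yolk sac endoderm, beside its own markers. Rbp4 and Afp were not among the 10 leading genes of the KO class, which held Apela, Shh and Pyy, so ratios in this class compare cells of different make-up. Cardiac muscle-like cells had rank 6 in WT (221 CPM) and rank 7 in KO (285 CPM) of the 9 classes, and held 6.00% and 5.35% of the UMIs of the gene.

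The members thus made up the contractile set in different proportions inside and outside the heart. In cardiac muscle-like cells Acta2 provided 47.9% (WT) and 44.5% (KO) of all UMIs of the set, Myl9 30.1% and 28.8%, Tagln 12.2% and 14.03%, and Cald1 only 3.45% and 5.04%. In cells with 5 or fewer cardiac markers Cald1 was the leading member, with a share of 38.0% in WT and 44.0% in KO, ahead of Acta2 with 31.4% and 26.2%. Erythroid-like cells lay between these, with Acta2 at 40.8% and 36.3% and Cald1 at 27.5% and 37.1%, from only 306 and 124 UMIs.

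**Figure D2:**
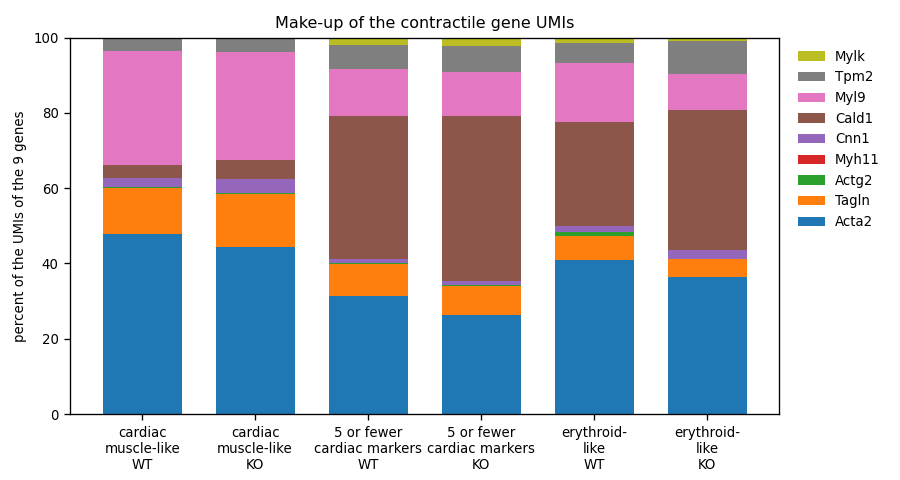
Share of each gene in the UMIs of the 9 genes (percent, stacked bars from 0 to 100) for cardiac muscle-like cells, cells with 5 or fewer cardiac markers and erythroid-like cells of each library. Acta2 and Myl9 fill most of the bars of cardiac muscle-like cells, and Cald1 is the largest part of the bars of cells with 5 or fewer markers.

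The level also followed the number of cardiac markers found in a cell. In WT, Acta2 rose from 174 CPM (159 to 189) in cells with 0 markers to 242 CPM (224 to 260) in cells with 3 markers, while in KO it stood at 167 CPM in both. It reached 1051 and 777 CPM at 6 markers, and from 8 markers on lay at 2949 to 3139 CPM in WT and 2271 to 2684 CPM in KO. Myl9 went from 74.8 and 71.5 CPM at 0 markers to 2020 and 1855 CPM at 12 to 14 markers, and Cnn1 from 7.11 and 3.07 CPM to 167 and 224 CPM. Tagln continued to rise at the top, from 550 CPM at 8 to 9 markers to 1032 CPM (939 to 1133) at 12 to 14 markers in WT, and from 629 to 914 CPM in KO. Cald1 went the other way: from 8 to 9 markers to 12 to 14 markers it fell from 328 CPM (278 to 386) to 139 CPM (106 to 179) in WT and from 399 CPM (326 to 484) to 174 CPM (132 to 224) in KO. Cells with more markers were also deeper, with a median of 2149 UMIs at 8 to 9 markers and 2894 UMIs at 12 to 14 markers in WT (2588 and 3562 UMIs in KO), and the part of depth in these courses was not tested.

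**Figure D3:**
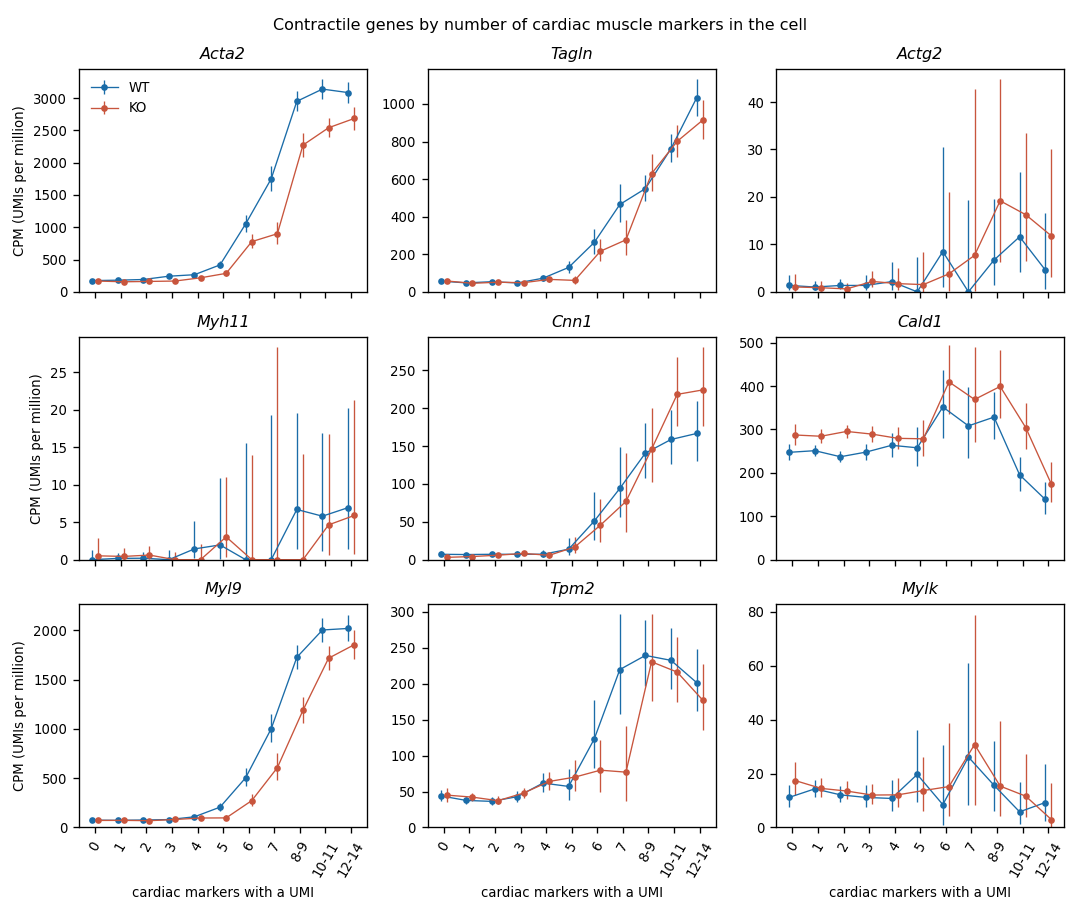
Level of each gene (CPM, linear axis from 0) against the number of the 14 cardiac markers with a UMI in the cell, WT in blue and KO in red, with exact Poisson intervals of 95%. Acta2, Myl9, Tagln and Cnn1 are far higher at 12 to 14 markers than at 0. Tpm2 is higher at 8 to 9 markers than at 0, and its intervals at 8 to 9 and at 12 to 14 overlap. Cald1 falls at the highest numbers, and Acta2 and Myl9 of KO lie below WT from 6 markers on.

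The 4 members with most UMIs were also set against the cardiac markers, class by class. Per cardiac marker UMI there were 0.0960 UMIs of Acta2 in WT cardiac muscle-like cells, and between 0.114 and 0.173 in the other 8 classes. In KO the figures were 0.0779 and 0.106 to 0.156. For Cald1 the ratio was 0.00692 in WT cardiac muscle-like cells and ran from 0.0913 to 0.514 in the other classes, so that its UMIs elsewhere were not in the proportion found in heart cells. For Myl9 the ratio was 0.0603 in WT and 0.0504 in KO cardiac muscle-like cells, and in the other 8 classes it ran from 0.032 to 0.136 in WT and from 0.0272 to 0.116 in KO, highest in migrating NCC-like cells. For Tagln it was 0.0244 and 0.0246 in WT and KO cardiac muscle-like cells, 0.0217 and 0.0144 in erythroid-like cells and 0.0259 and 0.0347 in migrating NCC-like cells, and it ran from 0.00541 to 0.073 over the other 8 classes in WT and from 0.00647 to 0.0932 in KO.

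KO was compared with WT over all cells and by class. With 1 library of each genotype this describes the libraries and cannot show a response to loss of Prdm6 in the crest. Summed over the 9 genes and over all cells, the level was 1085 CPM (1071 to 1099) in WT and 955 CPM (942 to 970) in KO, a ratio of −0.18 (−0.21 to −0.15). The share of cardiac muscle-like cells, 4.68% in WT and 3.49% in KO, moved the same way, but by the wider rule it moved the other way, with 24.95% in WT and 31.4% in KO. With those cells left out the ratio was −0.04, and in cells with 5 or fewer cardiac markers, 11175 in WT and 9231 in KO, it was 0.01 (−0.03 to 0.05), at 650 CPM and 655 CPM. Taken over single genes, 7 of the 9 had at least 200 UMIs, and 0 of these 7 lay past 1.5-fold in either direction, beside 2.39% of the 10513 genes with as many UMIs. The median ratio of the 7 genes was −0.06, and that of all 10513 genes was also −0.06.

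Individual members moved in opposite directions over all cells. Acta2 was lower in KO, at 420 CPM (411 to 429) in WT and 313 CPM (305 to 321) in KO (ratio −0.42, −0.47 to −0.38), and Myl9 likewise, at 218 and 167 CPM (−0.38, −0.45 to −0.32). Tagln was at 110 CPM in WT and 96.0 CPM in KO (−0.19, −0.28 to −0.10). Cald1 was higher in KO, at 247 CPM (240 to 254) in WT and 290 CPM (283 to 298) in KO (0.23, 0.18 to 0.29). The intervals of WT and KO did not overlap for any of these 4 genes. How many of all genes had intervals that did not overlap was not counted. Over the 10513 genes with at least 200 UMIs, percentile 5 of the ratio was −0.44 and percentile 95 was 0.30. All 4 ratios lay between these values. For Tpm2 (−0.03), Cnn1 (−0.06), Mylk (0.13), Actg2 (0.21) and Myh11 (−0.09) the interval of the ratio held 0, and the sign for Tpm2, Cnn1, Actg2 and Myh11 changed under some of the other ways of processing.

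**Figure D4:**
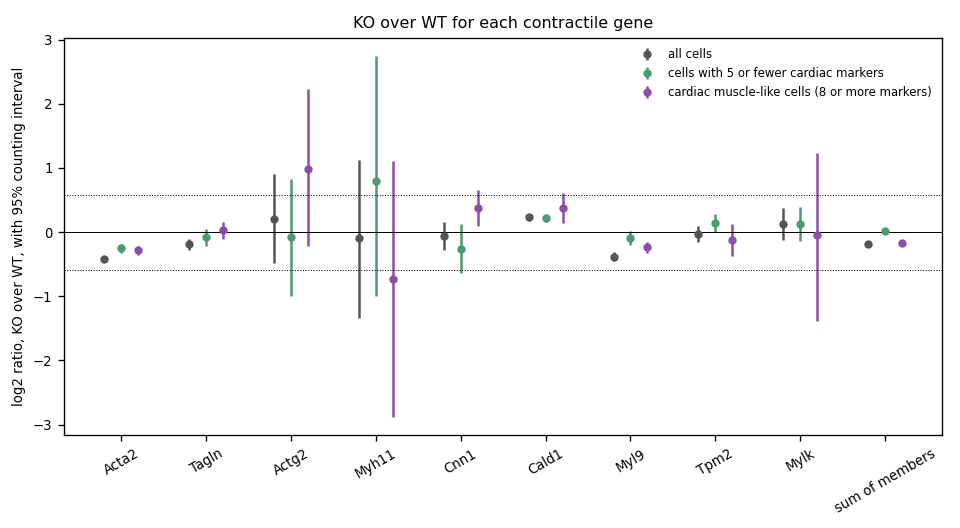
Log2 ratio of KO over WT for each gene and for their sum, with exact conditional intervals of 95%, over all cells (grey), cells with 5 or fewer cardiac markers (green) and cardiac muscle-like cells (purple). Dotted lines mark 1.5-fold. Acta2 lies below 0 and Cald1 above 0 in all 3 sets with intervals clear of 0. Myl9 lies below 0, with an interval that holds 0 in cells with 5 or fewer markers, and the wide intervals of Actg2 and Myh11 hold 0.

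Within cardiac muscle-like cells the same 4 ratios were smaller for Acta2 and Myl9 and larger for Cald1. Acta2, at 3061 CPM in WT and 2519 CPM in KO, had a ratio of −0.28 (−0.35 to −0.21). Myl9, at 1921 and 1629 CPM, had a ratio of −0.24 (−0.33 to −0.15). Tagln did not differ beyond counting error in these cells (0.03, −0.10 to 0.16), and neither did Tpm2 (−0.12, −0.38 to 0.13), although both did by the wider rule, or Mylk (−0.05, −1.38 to 1.23). Cnn1, at 155 and 202 CPM (0.38, 0.10 to 0.66), and Cald1, at 221 and 285 CPM (0.37, 0.14 to 0.61), were higher in KO. The sum of the 9 genes had a ratio of −0.17 (−0.22 to −0.12), at 6385 and 5667 CPM.

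The members were also set beside all genes in the same cells. Of the 8243 genes with at least 30 UMIs in cardiac muscle-like cells, 12.4% lay past 1.5-fold, and of the 6 members among them (Acta2, Tagln, Cnn1, Cald1, Myl9 and Tpm2) 0 did. Each of these 6 had over 400 UMIs there. Of the 1179 genes with at least 400 UMIs, chosen after the data were seen to match that depth, 3.65% lay past 1.5-fold, and the median ratio was 0.02 beside −0.045 for the 6 members. Acta2 ranked low among them, with 13.7% of the 1179 genes at its ratio or below, and Myl9 had 17.0%. Cnn1 and Cald1 ranked high, with 11.1% and 11.6% of the genes at their ratio or above. All 4 lay inside the middle 90% of those genes, which ran from −0.42 to 0.48.

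**Figure D5:**
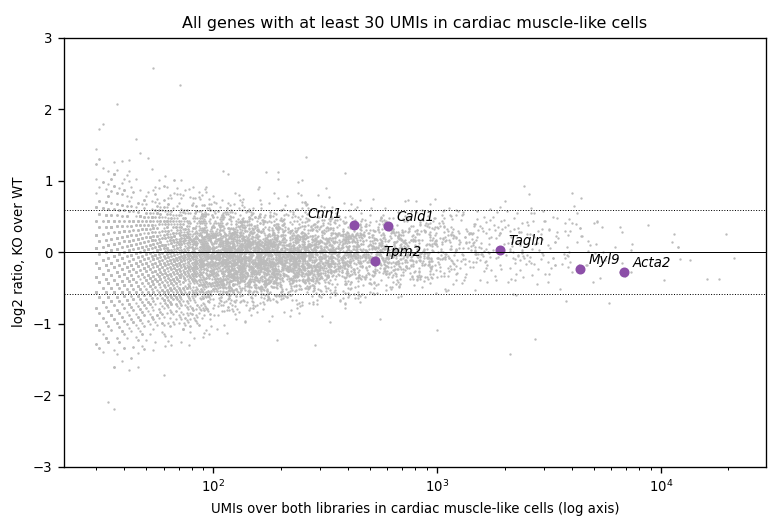
Log2 ratio of KO over WT (vertical) against UMIs over both libraries (horizontal, log axis) for the genes with at least 30 UMIs in cardiac muscle-like cells that had UMIs in both libraries (grey), with the 6 members among them in purple. Dotted lines mark 1.5-fold. The 6 members lie inside the dotted lines.

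How heart cells were defined decided the size of the difference and, for some members, its direction. By the wider rule of 3 markers the summed level was 2445 CPM (2404 to 2488) in WT and 1680 CPM (1647 to 1713) in KO, a ratio of −0.54 (−0.58 to −0.50). Under that rule Acta2 had a ratio of −0.74 (−0.80 to −0.68) and Myl9 also −0.74 (−0.82 to −0.67), so that 2 of 8 members with at least 30 UMIs lay past 1.5-fold, both lower, beside 8.51% of 11631 genes. The cardiac marker sum of the cells so chosen was lower in KO as well, at 8027 CPM against 11199 CPM, and its part in the ratio was not tested. Tagln, at 278 and 200 CPM, had a ratio of −0.48 (−0.59 to −0.37) by the wider rule, and Tpm2, at 107 and 85.7 CPM, one of −0.32 (−0.50 to −0.15). Cnn1 turned in sign, from higher in KO with 8 markers to −0.19 (−0.43 to 0.06), an interval that held 0. Cald1 kept its direction, with 0.22 (0.11 to 0.32).

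In the pooled cells with 5 or fewer cardiac markers the sum of the set did not differ beyond counting error, although members did. The sum did differ in somite-like cells, at 513 CPM in WT and 714 CPM in KO (0.48, 0.16 to 0.79), and slightly in cells of no class, at 743 and 714 CPM (−0.06, −0.10 to −0.02). In cells with 5 or fewer cardiac markers Acta2 stood at 204 CPM (198 to 211) in WT and 172 CPM (166 to 178) in KO (−0.25, −0.32 to −0.18), and Cald1 at 247 CPM (240 to 254) and 288 CPM (280 to 296), a ratio of 0.22 (0.16 to 0.28). The other 5 tested members had intervals that held 0, and 0 of the 7 lay past 1.5-fold, beside 2.29% of 10284 genes. Acta2 was lower in KO also in erythroid-like cells, at 118 and 88.2 CPM (−0.42, −0.95 to 0.08), though the interval there held 0. Its ratio was below 0 in 8 of the 9 classes, pharyngeal endoderm-like cells being the exception (0.37, −0.55 to 1.3), and the interval lay below 0 in cardiac muscle-like, endothelial-like (−0.55, −0.89 to −0.22), neural progenitor-like (−0.32, −0.57 to −0.07) and migrating NCC-like cells. In endothelial-like cells, at 152 CPM (132 to 175) in WT and 104 CPM (86.4 to 124) in KO, as in migrating NCC-like cells, the levels overlapped the erythroid-like background. The ratio of Cald1 was positive in 8 of the 9 classes, again with pharyngeal endoderm-like cells as the exception (−0.42, −0.91 to 0.06), and its interval lay above 0 in cardiac muscle-like, neural progenitor-like (0.40, 0.17 to 0.63) and somite-like cells (0.68, 0.20 to 1.16).

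In migrating NCC-like cells, which belong to the Wnt1 lineage, the summed level was 544 CPM (486 to 607) in WT and 513 CPM (455 to 576) in KO, a ratio of −0.08 (−0.32 to 0.15). Cald1 provided 143 of the 320 UMIs in WT and 164 of the 283 in KO (243 and 297 CPM, ratio 0.29, −0.04 to 0.62), and Myl9 63 and 47 (ratio −0.33, −0.91 to 0.24). Acta2 had 76 and 43 UMIs (−0.73, −1.30 to −0.17), at levels that overlapped the erythroid-like background in each library. Arch mesenchymal NCC-like cells, the crest cells that reach the arches, numbered only 27 in WT and 40 in KO. They held 39 and 45 UMIs of Cald1, 7 and 15 of Acta2, 8 and 5 of Myl9 and 6 and 1 of Tagln, and 0 of Actg2 and Myh11.

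Cells with much Tagln and few cardiac markers were described next. With at least 3 UMIs of Tagln and 5 or fewer cardiac markers, 43 WT cells and 45 KO cells were found, or 0.385% and 0.487% of the cells with 5 or fewer markers, and 82 and 59 further cells had exactly 2 UMIs. Chosen by Tagln, they had 1838 CPM of it in WT and 1746 CPM in KO. Other members were high in the same cells: Myl9 stood at 720 and 735 CPM, against 78.2 and 72.1 CPM in the remaining cells with 5 or fewer markers, Acta2 at 978 and 648 CPM against 200 and 169 CPM, and Cald1 at 602 and 622 CPM against 245 and 286 CPM. Myh11 had 0 UMIs in these cells of WT and 1 in KO, Actg2 0 and 2, and Cnn1 2 and 4. Most were in no named class (30 of 43 and 31 of 45). Their 5 leading other genes were Myh3, Mylpf, Col1a1, Cdkn1a and Nexn in WT and Prune2, Heyl, Col1a1, Nexn and Sat1 in KO.

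Over cells rather than classes the members were often found together in cardiac muscle-like cells and seldom outside them. Of the 559 WT and 340 KO thinned cardiac muscle-like cells, 394 and 222 had both Acta2 and Myl9, and 254 and 153 had both Acta2 and Tagln. Among those with Acta2, 79.4% in WT and 74.0% in KO had Myl9, against 78.2% and 72.1% of all cells of the class, and 51.2% and 51.0% had Tagln, against 48.8% and 49.1%, so that the pairs were found about as often as the separate shares give. At 1000 UMIs the median number of different members in a cell was 3 of 9 in cardiac muscle-like cells of both libraries and 0 in cells with 5 or fewer cardiac markers. Cells with at least 4 members made up 19.9% of WT and 25.6% of KO cardiac muscle-like cells, and 0.346% (34 cells) and 0.198% (18 cells) of the cells with 5 or fewer markers. Of the cells with 5 or fewer markers and a UMI of Tagln, 16.3% in WT and 14.1% in KO also had Myl9, against 7.62% and 7.33% of all such cells. For Cald1 with Acta2 the corresponding shares were 18.4% and 17.6%, against 18.3% and 16.6%.

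Over the 18 points given by 9 classes in 2 libraries, the levels of Acta2, Tagln, Cnn1, Myl9 and Tpm2 correlated with each other, with Pearson r of log2(CPM + 10) from 0.83 for Tagln with Tpm2 to 0.955 for Acta2 with Cnn1. Without the cardiac muscle-like points r ran from 0.18 for Tagln with Cnn1 to 0.63 for Acta2 with Cnn1, over 16 points. Cald1 had an r of at most 0.15 with any of them over the 18 points and of 0.25 to 0.35 over the 16, at the low end of the range of the other pairs. Points of a library share its depth and its free RNA, so these values are descriptions. Over the 18 points, of which the cardiac muscle-like ones stand far from the rest, the genes outside the set with the pattern most like the sum of the 9 were Atp2a2, the calcium pump of the heart sarcoplasmic reticulum, Dstn and Mpped2 (r of 0.97, 0.97 and 0.96). For Acta2 they were Myl4, Myl7 and Tnni1 (0.99, 0.98 and 0.98), genes of the heart sarcomere, of which Myl4 and Myl7 also served as cardiac markers. Cnn1 was closest to Myl1, Trdn and Trim55, Myl9 to Synpo2 and the cardiac markers Tnnt2 and Ttn, Tpm2 to Nebl, Ttn and Smyd1, and Tagln to Pdlim7, Samd4 and Usp13 (0.93 each). Cald1 was closest to Hmg20b, Nbdy and Apbb2 (at most 0.91), and Mylk to Snrpc, Zfp287 and Cenpu (at most 0.86). Most of these names changed over the 16 points without cardiac muscle-like cells, to Dstn, Wwc2 and Dnmt3a for the sum, Fam114a1, Lix1l and Spaca6 for Tagln, Pars2, Bmp2 and Rgs5 for Cnn1, Wls, Pkdcc and S1pr2 for Myl9, Mpp5, Prrx2 and Dubr for Tpm2, and Ctsa, Pdia4 and Dstn for Cald1. Acta2 kept Myl4 and Tnni1 beside Bves, and Mylk kept Snrpc beside Tbc1d15 and Kif22.

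Other genes of the pathway were taken from 3 lists, chosen with earlier results of these data known. Of 13 regulators of contractile gene transcription, 12 had at least 200 UMIs over all cells and 0 lay past 1.5-fold, with a median ratio of −0.16 beside −0.06 for all genes. Tgfbr1, a receptor of TGF-beta, stood at 103 CPM in WT and 91.4 CPM in KO (−0.17, −0.27 to −0.08), and its ligand Tgfb2 at 93.1 and 79.1 CPM (−0.23, −0.33 to −0.14). Notch3, a receptor of mural cells, had 83.1 and 78.0 CPM (−0.09, −0.19 to 0.01), and Mkl2, a coactivator of serum response factor, 69.1 and 69.2 CPM (0.00, −0.11 to 0.11). Myocd, which encodes myocardin, had 123 CPM in cardiac muscle-like cells of both libraries (0.00, −0.34 to 0.34). Of the 10 tested there 1 lay past 1.5-fold, a share near the 12.4% of all genes in those cells. It was Srf itself, with 101 UMIs in WT and 48 in KO (72.3 and 46.6 CPM, −0.63, −1.16 to −0.13), named after its value was seen. Over all cells Srf had 39.7 and 36.0 CPM (−0.14, −0.29 to 0.01).

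Of 18 other genes of the smooth muscle cytoskeleton, all had at least 200 UMIs, 0 lay past 1.5-fold over all cells and 13 had a ratio below 0 (median −0.18). Flna, which encodes the actin crosslinker filamin A, was at 413 CPM in WT and 467 CPM in KO (0.18, 0.13 to 0.22). Rhoa, a small GTPase that raises contraction, had 433 and 385 CPM (−0.17, −0.22 to −0.13) and its kinase Rock1 137 and 141 CPM (0.04, −0.03 to 0.12). Csrp2, a LIM protein of developing smooth muscle, had 261 and 216 CPM (−0.28, −0.34 to −0.22). In cardiac muscle-like cells 2 of 17 lay past 1.5-fold, a share near the 12.4% of all genes there. Both were lower in KO and are named after their values were seen: Fhl2 (215 and 138 CPM, −0.64, −0.94 to −0.35) and Csrp1 (147 and 95.1 CPM, −0.63, −0.99 to −0.27).

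Paralogs that serve outside smooth muscle were similar in this respect: 0 of 17 lay past 1.5-fold over all cells, with a median of −0.04, and 0 of 17 in cardiac muscle-like cells. Actb, the main cytoplasmic actin, had 19613 CPM in WT and 16817 CPM in KO over all cells (−0.22, −0.23 to −0.22), far above Acta2. Actg1 had 2732 and 2663 CPM (−0.04, −0.05 to −0.02), the myosin light chain Myl6 946 and 1032 CPM (0.13, 0.10 to 0.15), and Tpm1 937 and 941 CPM (0.005, −0.02 to 0.03). In cardiac muscle-like cells Tpm1 was at 4352 and 5171 CPM (0.25, 0.20 to 0.30), whereas Actc1, the actin of heart muscle, was at 7307 and 5620 CPM (−0.38, −0.43 to −0.33) and Acta1, the actin of skeletal muscle, had a ratio of −0.29 (−0.46 to −0.12), both named after their values were seen. Acta2, at −0.28, moved the same way as these.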

How the data were processed

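Single cells of E9.5 embryos were captured with a 10x 3′ kit, 1 library per genotype. Per the labels, reads were processed with Cell Ranger 1.3.1 and Scanpy and aligned to mm10, whereas the study's methods name a human genome with ZsGreen1. The deposited signal values are what the authors made by scaling each cell's counts to a common total and taking square roots, after removing doublets, cells with extreme UMI totals, rare genes and mitochondrial and ribosomal UMIs.

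Here each value was squared and divided by the smallest nonzero square of its cell. All values (100%) came out whole within 0.01 and were taken as UMIs. UMIs were summed per class and library and divided by total UMIs. No count model was run, since there was 1 library per genotype. Ratios carry exact conditional binomial intervals, and shares of cells exact Clopper-Pearson intervals. For shares, cells were thinned to 1000 UMIs each; 1361 shallower cells of WT and 125 of KO were left out. A background count gives genes past 1.5-fold. No ratio was formed where both libraries had 3 UMIs or fewer. Python 3.11.15, numpy 2.4.6, scipy 1.17.1, pandas 2.3.3 and matplotlib 3.10.9 were used. The ratio intervals were tested on simulated Poisson counts only. These have the counting error that the intervals assume and no variation between cells, embryos or libraries.

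The 9 genes and all lists were chosen with earlier results of these data known. Text names the 9 genes, the 4 genes with most UMIs of each pathway list with any past 1.5-fold over all cells, and the 3 genes of most similar pattern to each member with at least 200 UMIs. Outside this rule, Myocd, Srf, Fhl2, Csrp1, Actc1 and Acta1 are named after their values were seen, and Prdm6 as the targeted gene. The gate of 8 cardiac markers, the cells with 5 or fewer, the Tagln-high cells and the set with 400 UMIs were added after the data were seen. Coordinates are from GENCODE vM21, in which 17917 of 18131 symbols were found. Alternatives were other scalings, gates, depths and filters. The study's test over cells was not used, because cells are not replicates.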

Additional observations from a re-analysis of the deposited data

Results flagged for a closer look

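These 5 ratios of KO over WT stood out because, for the same gene or sum, the interval lay below 0 in one class and above 0 in another. They come from a screen of the 9 genes and their sum in each of the 9 named classes. How many of all genes would meet this rule was not counted. The differences between classes were not tested, since there was 1 library per genotype. Tagln had a log2 ratio of −3.02 (−6.21 to −0.90) in neuron-like cells, from 14 UMIs in WT and 2 in KO. In pharyngeal endoderm-like cells its ratio was 3.56 (0.75 to 9.001), from 1 and 10 UMIs in classes whose leading genes differed between the libraries, and in somite-like cells 1.04 (0.03 to 2.09), from 15 and 22 UMIs. The sum of the 9 genes had a ratio of 0.48 (0.16 to 0.79) in somite-like cells, from 171 and 170 UMIs, and of −0.17 (−0.22 to −0.12) in cardiac muscle-like cells, from 8916 and 5839 UMIs.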

How the results depend on the processing

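No paired analysis was possible because each genotype had 1 library, and for the same reason no library could be left out. Over all cells the log2 ratio of the 9 summed genes, −0.18, was −0.12 with a trimmed mean of log ratios and −0.12 with the median of gene ratios as the scale, −0.24 without the 5% deepest cells, 0.0055 without cells of the wider cardiac and the erythroid gates, −0.0385 without cells of at least 8 cardiac markers, and 0.0102 in cells with 5 or fewer. By the wider cardiac gate it was −0.54, and −0.49 and −0.47 with those scalings, −0.60 from means of squared values, −0.66 without the deepest cells, −0.66 after thinning, −0.45 with 2 markers, −0.58 with a lead of 2, and −0.17 with 8 markers. With 8 markers (−0.17) it was −0.12 and −0.12 with the scalings, −0.22 without the deepest cells and −0.27 with 6 markers. The share of genes past 1.5-fold over all cells, 2.39%, was 18.2% with at least 1 UMI in each library. The log2 level of the wider cardiac class over the median of other classes, 2.20 in WT and 1.38 in KO, was 1.79 and 1.17 with 2 markers, 2.65 and 1.92 with 4, 2.53 and 1.89 with a lead of 2, 2.32 and 1.53 gated on thinned cells, and 3.55 and 3.12 with 8. Of the other values, 189 member ratios stayed within their counting intervals and 42 did not, and 58 class levels did and 17 did not. Acta2, Myl9 and Cald1 kept their sign under every alternative run over all cells, by the wider gate and with 8 markers. No alternative was run for cells with 5 or fewer markers.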
